A study of Mus musculus with 6 samples.

Results

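The genes described here are 10 that mark macrophages of the mouse testis or belong to the CSF1 axis on which these cells depend. They were chosen by symbol, and all 10 were found among the 22219 gene symbols of the deposited table. They comprise the complement C1q chains C1qa, C1qb and C1qc, the growth factor gene Csf1 and its receptor gene Csf1r, and the surface or lysosomal markers Adgre1, Cd68, Ptprc, Cx3cr1 and Mrc1. RNA came from whole testes on day 10, with 3 control libraries and 3 libraries (cKO) in which Eif5, a translation initiation factor gene, was deleted conditionally in germ cells through a cross of Eif5fl/fl and Stra8-Cre animals. The Stra8 promoter drives the Cre in germ cells, so macrophages and the other somatic cells of the testis are not its target. Whether those cells kept the gene in these cKO testes was not measured. Strain, the genotype of the controls and whether a library held 1 animal or several are not stated in the labels. Effects of Cre or floxed alleles alone therefore cannot be told apart from those of Eif5 loss.

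Macrophages are the main immune cell of the testis. Interstitial macrophages lie beside Leydig cells and are known for CSF1R, while peritubular macrophages lie on the wall of the seminiferous tubules and are known for MHC class II. Whether both were present in these day 10 testes was not measured. CSF1, made by non-immune cells, binds the receptor tyrosine kinase CSF1R and keeps macrophages alive. Complement C1q, built from 3 different chains, starts the classical complement pathway and binds dying cells, and tissue macrophages are its main source.

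The 3 C1q chain genes lie side by side on chromosome 4, in the order C1qb, C1qc, C1qa between Ephb2 and Epha8 in RefSeq (GRCm38.p6). The promoter windows of C1qb and C1qc are shown because these neighbouring genes were both called in the comparison given further on. Each window runs from 250 bases before to 50 bases after the annotated start site (RefSeq, GRCm38.p6), 5′ to 3′ on the minus strand, at chr4:136886151-136886450 for C1qb and chr4:136892865-136893164 for C1qc. Capitals mark GAGGAA or its reverse complement TTCCTC, the core letters bound by PU.1, a transcription factor of macrophages.
C1qb: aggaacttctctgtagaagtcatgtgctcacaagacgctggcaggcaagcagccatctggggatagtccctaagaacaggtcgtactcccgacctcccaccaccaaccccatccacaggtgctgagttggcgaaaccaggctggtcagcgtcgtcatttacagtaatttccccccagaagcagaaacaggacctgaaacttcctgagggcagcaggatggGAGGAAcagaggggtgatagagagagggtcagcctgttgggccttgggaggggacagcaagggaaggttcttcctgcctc
C1qc: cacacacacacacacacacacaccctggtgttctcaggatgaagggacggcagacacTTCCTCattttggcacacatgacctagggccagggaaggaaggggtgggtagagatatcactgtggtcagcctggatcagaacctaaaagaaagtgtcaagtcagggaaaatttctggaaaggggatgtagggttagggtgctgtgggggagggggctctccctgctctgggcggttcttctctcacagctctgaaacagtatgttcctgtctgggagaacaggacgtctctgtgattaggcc
The match in C1qb begins at position -30 from the start site on the printed strand, and that in C1qc at position -193 in reverse complement. Sequences were matched for 7 of the 10 genes, in 8 windows, and 5 of these windows held the letters on either strand. Of all 32851 windows of that length in the reference table, 28.3% held them. A match is a description of the letters and not a measured binding site.

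Values are normalised read counts, that is, reads over the size factor of their library. The 6 libraries held 32555443 to 48409550 recovered reads, and each of the 10 genes had between 80 and 2480 recovered reads in every library. Eif5, the targeted gene, was lower in all 3 cKO libraries than in all 3 controls (log2 fold change -0.31, limma adjusted p = 0.024), and this call ended without cKO replicate 1 (limma adjusted p = 0.133) or cKO replicate 2 (limma adjusted p = 0.0888). Libraries of a group correlated at 0.986 to 0.988 (Pearson, log2 values) and those of different groups at 0.978 to 0.982. Single cKO libraries stood apart in blood genes. The summed level of the erythroid list was 11802 in cKO replicate 1 and 3597 to 5233 in the others, and that of the neutrophil list was 888 in cKO replicate 2 and 33.9 to 50.1 in the others.

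With the deposited size factors 8 of the 10 genes rose in cKO, 0 fell, and Csf1r and Adgre1 did not pass the test. The rises were small, from 1.21-fold for Mrc1 to 1.55-fold for Ptprc. Each gene was tested with limma on log2(value + 2), and a gene was called at a p under 0.05 after Benjamini-Hochberg adjustment over the 17570 genes tested. By that rule 9.63% of all genes tested were called higher and 10.4% lower. The median log2 fold change was 0.34 over the 10 genes and 0.01 over all genes tested. In 6 of the 10, every cKO library lay above every control, which was so for 18.3% of all genes tested. In a bulk sample, more macrophages, more RNA of these genes per cell and less RNA from other cells cannot be told apart. The sign of the median turned when libraries were scaled to Sertoli cell reads (-0.09), and the calls rested on single libraries, as given after the values of each gene.

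With the deposited size factors all C1q chains rose. C1qa, the A chain, read 743, 973 and 1179.7 normalised read counts in control replicates 1 to 3 and 1355, 1249.6 and 1146 in cKO replicates 1 to 3. The highest control lay above the lowest cKO library, so the groups overlapped by 1 library on each side. The log2 fold change of C1qa was 0.39 (SE 0.134, limma adjusted p = 0.0429). It was 0.22 without control replicate 1, the library with the lowest value, where the gene was not called (limma adjusted p = 0.209).

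C1qb, the B chain, read 840.2, 921 and 927 in controls and 1186, 1224 and 1008 in cKO, again as normalised read counts. Here the groups did not overlap and the controls lay close together (896 ± 48.4, SD, n = 3, against 1139 ± 115 in cKO, SD, n = 3). The difference on the log2 scale was 0.34 (SE 0.110, limma adjusted p = 0.0328). C1qc, the C chain, read 784, 885 and 1243 in controls and 1393, 1343 and 1168 in cKO. As for C1qa, control replicate 3 was the high control and cKO replicate 3 the low cKO library. The log2 fold change of C1qc was 0.45 (SE 0.136, limma adjusted p = 0.0256).

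**Figure D1:**
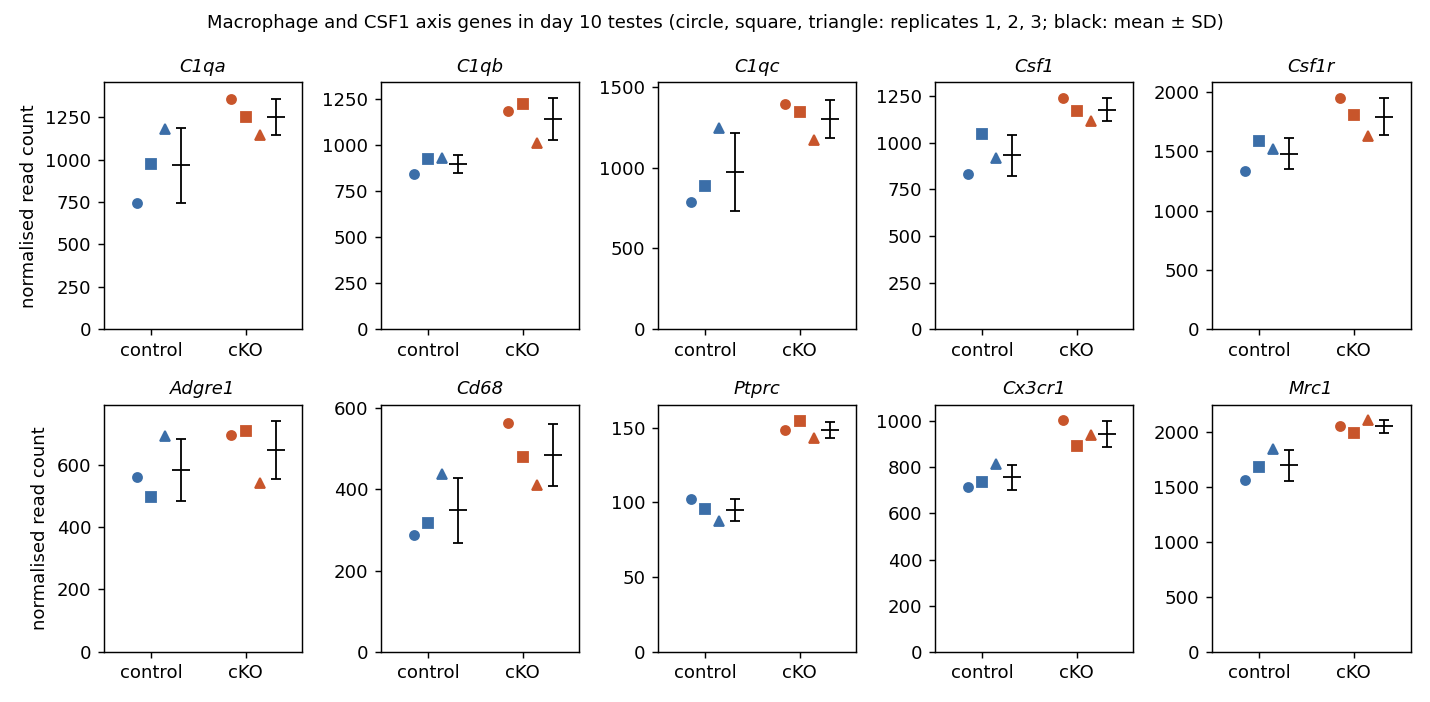
Normalised read counts (vertical axes, from 0) of the 10 genes in 3 control and 3 cKO libraries, with 1 panel per gene; circles, squares and triangles are replicates 1, 2 and 3, and black marks are the mean ± SD. Groups do not overlap for C1qb, Csf1, Csf1r, Ptprc, Cx3cr1 and Mrc1, while C1qa, C1qc, Adgre1 and Cd68 overlap.

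Csf1, the ligand, read 831, 1046 and 917 normalised read counts in controls and 1239, 1169 and 1117 in cKO. All cKO libraries lay above all controls. The difference on the log2 scale was 0.34 (SE 0.111, limma adjusted p = 0.0349), from a mean of 932 ± 108 to 1175 ± 61.1 (SD, n = 3 per group). Csf1r, the receptor that marks monocytes and macrophages, read 1338, 1587 and 1518 in controls and 1948, 1804 and 1631 in cKO. The groups did not overlap for the receptor either, with control replicate 2 only slightly below cKO replicate 3. Its log2 fold change of 0.28 (SE 0.104) had a 95% interval of 0.06 to 0.49 and did not pass the adjusted threshold (limma adjusted p = 0.0642, unadjusted p = 0.0144).

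Ptprc encodes CD45, found on all white blood cells. It read 102, 95.8 and 87.2 normalised read counts in controls and 149, 154 and 143 in cKO. The groups were far apart relative to their spread (SD 7.45 in controls and 5.61 in cKO, n = 3 per group). It had the largest log2 fold change of the 10, 0.64 (SE 0.203, limma adjusted p = 0.0316), and the fewest reads, so its interval was the widest (0.21 to 1.06).

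Cd68, a lysosomal glycoprotein gene of macrophages, read 288, 318 and 438 in controls and 565, 479 and 412 in cKO. Control replicate 3 lay above cKO replicate 3, so the groups overlapped. The difference on the log2 scale was 0.49 (SE 0.163, limma adjusted p = 0.0385). Cx3cr1, the fractalkine receptor gene, read 716, 738 and 817 in controls and 1006, 891 and 940.2 in cKO, without overlap. The difference on the log2 scale was 0.32 (SE 0.111, limma adjusted p = 0.0451). Mrc1, which encodes the mannose receptor CD206, read 1569, 1683 and 1849 in controls and 2058, 1992 and 2117 in cKO. This was again without overlap, with a log2 fold change of 0.28 (SE 0.0966, limma adjusted p = 0.0483).

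Adgre1, the gene of the F4/80 antigen, had the smallest log2 fold change of the 10 with all libraries. It read 562, 496 and 691 normalised read counts in controls and 695, 709.9 and 540.4 in cKO. The low cKO library lay below controls 1 and 3, and control replicate 3 nearly reached the high cKO libraries. The difference on the log2 scale was 0.16 (SE 0.141, 95% interval -0.14 to 0.45, limma adjusted p = 0.476), an interval that also holds the estimates of the other genes except Cd68 and Ptprc. The value was 0.046 without control replicate 2, 0.085 without cKO replicate 2, 0.10 without cKO replicate 1, 0.28 without control replicate 3 and 0.28 without cKO replicate 3, where Mrc1 was smaller (0.26). Whether Adgre1 changed less than the other genes was not tested.

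The libraries differed within groups in a way that most of these genes shared. Control replicate 1 had the lowest value of all 6 libraries for 8 of the 10 genes, and control replicate 3 the highest control value for 7. A low control replicate 1 was not limited to these genes. It also had the lowest sums of the Sertoli and Leydig lists (405516 and 34172) and of all genes tested. Its sum of the meiotic list was the highest of the 6 libraries (33076). Among cKO libraries, replicate 1 was the highest of all 6 for 6 genes, and replicate 3 the lowest of its group for 8. As a description over 6 libraries, the Pearson correlation of log2 values was 0.97 between C1qa and C1qc, 0.98 between C1qc and Cd68 and 0.96 between Csf1 and Csf1r. The 45 pairs ran from 0.28 to 0.98 with a median of 0.82. These points share their library and its size factor, and the difference between the groups enters them. With the group means taken out the median was 0.58 and the range -0.995 to 0.96, with Ptprc running against C1qa (-0.75), C1qc (-0.71), Cx3cr1 (-0.79) and Mrc1 (-0.995). Such values rest on very few free points and are not a test.

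Per length, the order of levels in control testes began with the C1q chains. Per 1000 bases of annotated exon (all exons of the gene in GENCODE M21 merged), C1qa stood at 928 ± 210.3 normalised read counts, C1qb at 824 ± 44.5 and C1qc at 503 ± 125 (SD, n = 3). The ranges of C1qa and C1qb overlapped, and C1qc lay below C1qb in every control library. Cd68 followed at 277 ± 63.4, Mrc1 at 267 ± 22.1 and Csf1r at 256 ± 22.3 on this scale (SD, n = 3), with overlapping ranges. Next came Adgre1 at 180.1 ± 30.6, Csf1 at 176 ± 20.5 and Cx3cr1 at 168 ± 11.7 (SD, n = 3), again with overlapping ranges and all below Csf1r. Ptprc was far lower at 5.19 ± 0.407 (SD, n = 3), but its merged exons are long (18313 bases), which lowers a value per length. In cKO the C1q chains were again the highest, with C1qa at 1202 ± 100.2 per 1000 bases (SD, n = 3).

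Ratios between these genes inside a library do not depend on the scaling, and none of the 4 tested differed between groups beyond the spread. The exact permutation test is 2-sided and cannot go below p = 0.1 with 3 against 3 libraries. Summed C1q to Csf1r was 1.77, 1.75 and 2.21 in controls and 2.02, 2.12 and 2.04 in cKO (log2 difference 0.12, exact permutation p = 0.4). Only control replicate 3 reached the cKO level, and without it the log2 difference was 0.23 (exact permutation p = 0.1, the smallest that 2 against 3 libraries allow). Without control replicate 1 or control replicate 2 it was 0.065 or 0.058. The ratio of Mrc1 to Csf1r was 1.15 ± 0.0814 in controls and 1.15 ± 0.128 in cKO (SD, n = 3 per group, exact permutation p = 1). Ligand to receptor, Csf1 to Csf1r, gave 0.628 ± 0.0281 and 0.656 ± 0.0255 (SD, n = 3 per group, exact permutation p = 0.3). Summed MHC class II (H2-Aa, H2-Ab1, H2-Eb1 and Cd74) to Csf1r was 0.606, 0.576 and 0.667 in controls and 0.707, 0.665 and 0.426 in cKO (exact permutation p = 0.9). The low value was that of cKO replicate 3. Ptprc to Csf1r, a ratio looked at after its values were seen and not tested, was 0.0763, 0.0604 and 0.0575 in controls and 0.0763, 0.0855 and 0.0877 in cKO.

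**Figure D2:**
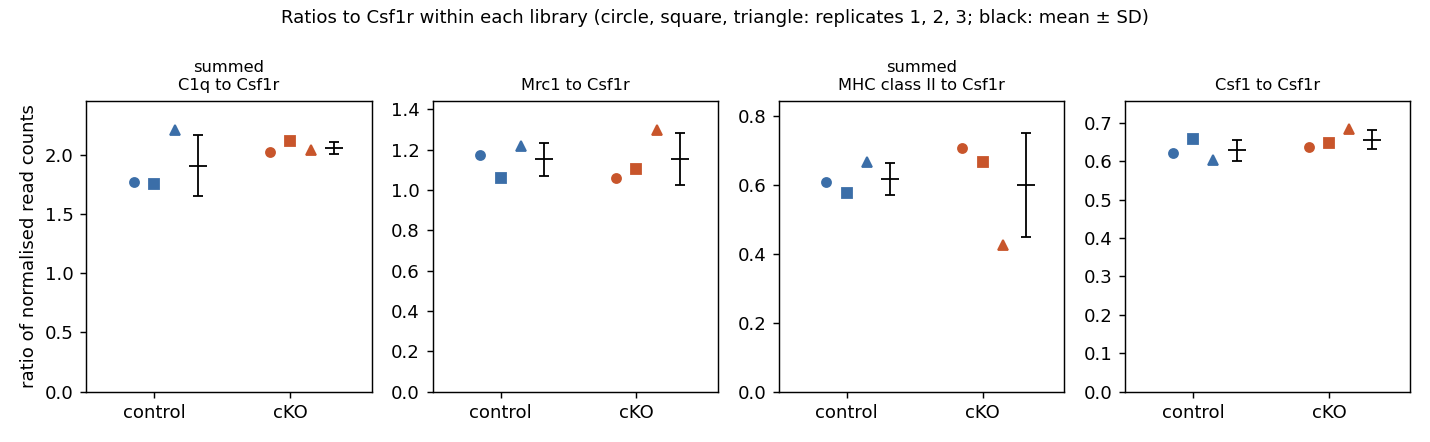
Ratios of normalised read counts (vertical axes, from 0) to Csf1r within each of the 6 libraries for summed C1q, Mrc1, summed MHC class II and Csf1, with mean ± SD in black. Control and cKO libraries overlap in all 4 panels, and cKO replicate 3 is low for MHC class II (0.426).

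The direction of these genes depended on what the libraries were scaled to. Scaled to library totals, the median of the 10 was 0.26 and 0 were called higher by limma, where 4.59% of all genes tested were. At an unadjusted p under 0.05 there were 6 of the 10 with that scaling, and 5609 of all 17570 genes tested. Scaled to the summed reads of 18 Sertoli cell genes, the median log2 fold change of the 10 was -0.09, with 0 called higher or lower by limma and 0 at an unadjusted p under 0.05, while that of all genes tested moved to -0.42. Under that scaling 0.148% of all genes tested were called higher and 30.9% lower. Relative to the median of all genes the 10 thus stayed above it, but relative to Sertoli cell reads they were level or slightly lower: Cd68 (0.06), Ptprc (0.21) and C1qc (0.02) kept a positive sign and the other 7 turned negative, down to -0.27 for Adgre1. Scaled to the summed reads of 12 Leydig cell genes, a scaling chosen after the data had been seen, the median was -0.12.

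**Figure D3:**
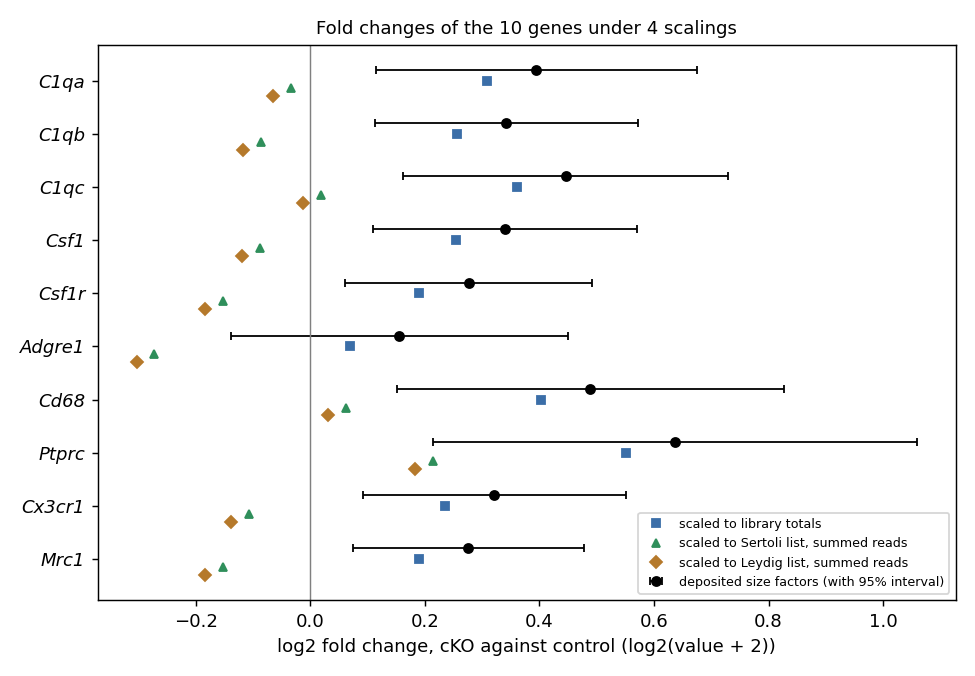
Log2 fold change of cKO against control (horizontal axis) for each of the 10 genes under 4 scalings; black circles with 95% intervals use the deposited size factors, squares library totals, triangles Sertoli cell reads and diamonds Leydig cell reads. With the deposited factors all 10 values are above 0, and with Sertoli or Leydig scaling most lie between -0.3 and 0.

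Other cell types moved with them. In the deposited scaling 10 of 12 tested Leydig cell genes were higher and 0 lower (median 0.52), and their summed level was 34172 to 44565 in controls and 51344 to 59029 in cKO. Of 18 Sertoli cell genes 10 were higher and 1 lower (median 0.45), with summed levels of 405516 to 562641 and 621713 to 704795. In contrast 19 of 19 meiotic prophase genes were lower (median -1.36) and 7 of 8 genes of differentiating spermatogonia were lower (median -0.97), the meiotic sum running from 28860.4 to 33076 in controls and from 12059.8 to 13623 in cKO. Endothelial genes had 2 of 12 higher and 1 lower (median -0.01), and peritubular myoid genes had 0 of 10 higher and 2 lower (median -0.18). The shares over all genes tested were 9.63% higher and 10.4% lower. Under the Sertoli scaling 0 Leydig cell genes were called (median 0.09) and the 19 meiotic genes were again all lower (median -1.79). The part of these shifts in the values of the macrophage genes was not tested.

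Blood cell genes also had higher calls, beside 9.63% of all genes tested. The erythroid list had 2 of 7 tested genes higher (median 0.53), both globin genes with near-identical copies, and it had 0 called without control replicate 3, 1 without control replicate 1 or 2 and 4 without cKO replicate 2 or 3. DESeq2 called 0 of the 7, with 0 at an unadjusted p under 0.05, and edgeR called 3. Without cKO replicate 1 the erythroid list had 0 called (median 0.13), and the median of the 10 macrophage and CSF1 genes was 0.31. Neutrophil genes had 1 of 3 tested genes higher, Ltf, which read 135 in cKO replicate 2 and between 4.35 and 17.0 elsewhere. Without cKO replicate 2 Ltf was not called (limma adjusted p = 0.205) and the median of the 10 was 0.35. No gene of either list found in the table was at 0 in all libraries.

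Single libraries decided which of the 8 genes were called. Without cKO replicate 1, and likewise without cKO replicate 2, 0 of the 10 were called by limma, with 8 and 9 of them at an unadjusted p under 0.05. Over all genes 5032 of 18121 tested and 4950 of 18075 tested were at that level in these fits. All 10 fold changes stayed positive in each of the 6 fits that left out a library. C1qb was called without control replicate 2, control replicate 3 or cKO replicate 3. C1qa, C1qc and Cd68 were called without control replicate 3 or cKO replicate 3. Cx3cr1 and Mrc1 were called only without control replicate 3, Csf1 only without control replicate 2 and Ptprc only without control replicate 1. Across these fits the limma adjusted p of C1qa ran from 0.00641 to 0.209, that of C1qc from 0.00132 to 0.116 and that of Ptprc from 0.0445 to 0.104. edgeR on the recovered reads called 6 of the 10 higher, against 8.96% of all genes tested, and left out C1qa (edgeR adjusted p = 0.0532) and Mrc1 (edgeR adjusted p = 0.0511).

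A list of 36 further macrophage genes had a similar median fold change with a smaller share of calls. Over all 17570 genes tested 9.63% were called higher and 8929 had a positive log2 fold change. Of 35 list genes tested, 5 were higher, 0 lower and 30 not called, and 32 had a positive log2 fold change (median 0.36, against 0.01 for all genes tested, with the deposited size factors). Their summed level was 20489 to 25667 in controls and 26650.3 to 29353 in cKO, without overlap. A large part of that sum was Lgmn, with 6761, 9317 and 9161 in controls and 10495, 9373 and 9750 in cKO. In 13 of the 35 every cKO library lay above every control, which was so for 18.3% of all genes tested. Pf4, the platelet factor 4 gene that resident macrophages also express, and the folate receptor gene Folr2 had log2 fold changes of 0.52 and 0.56 (limma adjusted p = 0.00824 and 0.0128). Both calls ended without cKO replicate 2 (limma adjusted p = 0.0744 for Pf4 and 0.0825 for Folr2). The protease gene Lgmn (0.24, limma adjusted p = 0.132), the lysozyme gene Lyz2 (0.18, limma adjusted p = 0.302) and the pore-forming Mpeg1 (0.27, limma adjusted p = 0.0826) had the highest levels and were not called. The list had 3 genes higher without cKO replicate 1, 1 without cKO replicate 2, 9 without control replicate 3 and 10 without cKO replicate 3. Over all genes tested 918, 1008, 1747 and 932 were called higher in these leave-out fits, in that order. Under the Sertoli scaling 0 of the list were higher and 1 lower (median -0.06).

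Of 7 tested MHC class II genes 1 was higher, 1 lower and 5 not called, and 6 of the 7 had a positive log2 fold change (median 0.47). Of all 17570 genes tested 9.63% were called higher, 10.4% lower, and 8929 had a positive log2 fold change. H2-Aa, the alpha chain of I-A, rose (log2 fold change 0.74, limma adjusted p = 0.0403), reading 99.1, 107 and 146 normalised read counts in controls and 266, 228 and 121 in cKO. H2-Ab1, the beta chain of the same dimer, fell from 318, 373 and 452 to 289, 289 and 212 (log2 fold change -0.53, limma adjusted p = 0.0304). Among the genes not called were H2-Eb1, a beta chain of I-E (0.47, limma adjusted p = 0.129), and Cd74, the invariant chain (0.52, limma adjusted p = 0.12). In cKO replicate 3 H2-Aa, H2-Ab1, H2-Eb1 and Cd74 had their lowest cKO values, and without that library 3 genes of the list were higher and 0 lower (median 0.72). The count of higher genes was 0 without control replicate 1, control replicate 2, cKO replicate 1 or cKO replicate 2 and also with Sertoli scaling, where 1 gene was lower (median 0.05). H2-Aa was not called when control replicate 1, control replicate 2, cKO replicate 1 or cKO replicate 2 was left out (limma adjusted p = 0.123, 0.105, 0.207 and 0.131). H2-Ab1 was not called when control replicate 2, control replicate 3 or cKO replicate 3 was left out (limma adjusted p = 0.0616, 0.13 and 0.155).

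In a list of other CSF1 pathway and colony-stimulating factor genes 2 of 16 tested passed the test as higher and 0 as lower (median -0.04), beside the 9.63% of all genes called higher. Csf2rb, the shared beta chain of the receptors for GM-CSF, IL-3 and IL-5, rose from 107, 103 and 91.6 to 169.9, 169 and 181 normalised read counts (log2 fold change 0.77, limma adjusted p = 0.00817). Ptprz1, a receptor phosphatase that binds the second CSF1R ligand IL-34, had a log2 fold change of 0.70 (limma adjusted p = 0.00864), a call that ended without cKO replicate 2 (limma adjusted p = 0.0681). Il34 itself was low, from 17.8 to 37.0 normalised read counts over the 6 libraries, and did not pass (limma adjusted p = 0.972, log2 fold change -0.03). Of the widely expressed signalling genes, the adaptor gene Grb2 (-0.05, limma adjusted p = 0.768) and the PI3-kinase subunit gene Pik3r1 (0.16, limma adjusted p = 0.332) were not called, nor was Sdc1, a syndecan gene (-0.27, limma adjusted p = 0.0721). Under the Sertoli scaling 0 of the list were higher and 5 lower.

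Among complement genes outside C1q, regulators included, 5 of 25 tested were higher, 0 lower and 20 not called (median 0.14). The list also holds genes of the lectin and alternative pathways. By the same rule 9.63% of all genes tested were called higher. C1ra, a protease that C1q carries, read 1839, 2507 and 2446 normalised read counts in controls and 3149, 2814 and 3018 in cKO (log2 fold change 0.41, limma adjusted p = 0.0112, or 0.0561 without cKO replicate 1). Its partner C1s1 had a log2 fold change of 0.25 and did not pass (limma adjusted p = 0.0561). Regulators were among the calls: Cd59a, an inhibitor of the membrane attack complex (0.57, limma adjusted p = 0.00179), and Serping1, the C1 inhibitor (0.34, limma adjusted p = 0.0479). Serping1 was not called by edgeR (adjusted p = 0.0712), without control replicate 1 (limma adjusted p = 0.219), without cKO replicate 1 (limma adjusted p = 0.161) or without cKO replicate 3 (limma adjusted p = 0.116). Counts of higher genes in this list were 2 without control replicate 1 (with 2 lower) and 2 without cKO replicate 3 (with 1 lower). They were 1 without cKO replicate 1 and 8 without control replicate 3. Over all genes tested 1396, 932, 918 and 1747 were called higher in these leave-out fits, in that order. Under the Sertoli scaling 0 of the list were higher and 4 lower (median -0.29).

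Among 10 tested chemokines that act on macrophages and their precursors, Cxcl12 was the only one called, beside 9.63% of all genes called higher. It read 5136, 5400.0 and 6018 in controls and 7553, 8842 and 8770.0 in cKO (log2 fold change 0.60, limma adjusted p = 0.000207), and it kept its call without any single library and lost it under the Sertoli scaling (limma adjusted p = 0.432). The monocyte chemokine gene Ccl2 stayed below 40 normalised read counts in every library (limma adjusted p = 0.672, log2 fold change -0.37), and Cx3cl1, the ligand of CX3CR1, was not called (0.11, limma adjusted p = 0.559).

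Lists of other white blood cells held both directions, beside 9.63% of all genes tested called higher and 10.4% lower. Of 11 tested T and NK cell genes 0 were higher and 1 lower (median -0.04). The 1 called, Cd3e, fell from 225, 271 and 347 to 50.6, 59.4 and 92.1 normalised read counts (log2 fold change -2.05, limma adjusted p = 4.31e-06). The T cell receptor constant gene Trac (-0.36, limma adjusted p = 0.179) and Cd3d (0.81, limma adjusted p = 0.324) were not called. Of 4 tested B cell genes 0 were called by limma, 0 by edgeR and 0 by DESeq2, and 0 had an unadjusted p under 0.05. Dendritic cell genes had 2 of 5 higher, the cytokine receptor gene Flt3 (0.95, limma adjusted p = 0.0151) and the transcription factor gene Zbtb46 (0.29, limma adjusted p = 0.0268). Mast cell genes had 1 of 5 higher, the histidine decarboxylase gene Hdc (0.45, limma adjusted p = 0.0112). Monocyte genes had Plac8 higher (0.41, limma adjusted p = 0.0498) and Fn1, which many stromal cells also express, lower (-0.42, limma adjusted p = 0.00778). Control means were 67.7 normalised read counts for Flt3 and 2201 for Zbtb46, where the dendritic cell list summed to 2316 to 2375. Hdc had a control mean of 567, where the mast cell list summed to 796 to 931. Cd3e had a control mean of 281, where the T and NK cell list summed to 655 to 861. Which cells the reads of Cd3e, Zbtb46 and Hdc came from was not tested. Flt3, Zbtb46 and Hdc were not called without cKO replicate 1 (limma adjusted p = 0.0928, 0.0728 and 0.0872). Flt3 was also lost without control replicate 1 (limma adjusted p = 0.0774), Zbtb46 without cKO replicate 2 or 3 (limma adjusted p = 0.0679 and 0.141) and Fn1 without cKO replicate 2 (limma adjusted p = 0.0754). Plac8 was not called in any fit that left out a library, and under the Sertoli scaling none of Flt3, Zbtb46, Hdc and Plac8 was called.

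**Figure D4:**
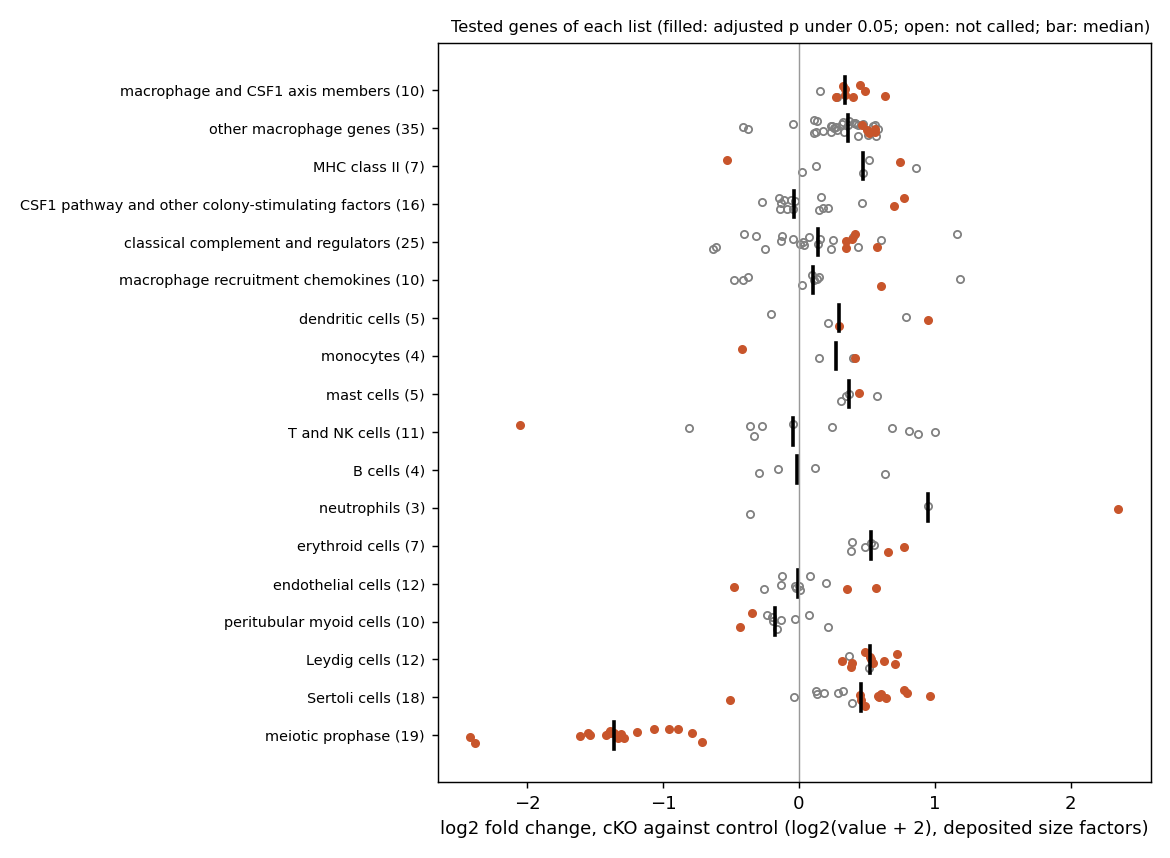
Log2 fold change of cKO against control (horizontal axis, deposited size factors) for each tested gene of the lists, with the number tested in brackets; filled points passed an adjusted p of 0.05, open points did not, and bars are medians. The 10 macrophage and CSF1 genes and 32 of 35 further macrophage genes lie to the right of 0. Their medians (0.34 and 0.36) are between those of the Leydig (0.52) and CSF1 pathway (-0.04) lists, and meiotic genes lie far to the left (-1.36).

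The C1q domain also occurs in proteins outside complement. Of 15 tested genes of that family 3 were higher, 0 lower and 12 not called (median 0.14, or -0.28 under the Sertoli scaling). Over all genes tested 9.63% were called higher and 10.4% lower. The 3 were the cerebellin gene Cbln4 (log2 fold change 1.56, limma adjusted p = 6.78e-06), C1qtnf6 (0.36, limma adjusted p = 0.0158) and C1qtnf7 (0.30, limma adjusted p = 0.0482). Cbln4 kept its call without any single library and under the Sertoli scaling. C1qtnf6 was not called when control replicate 1, cKO replicate 1 or cKO replicate 2 was left out (limma adjusted p = 0.0504, 0.0535 and 0.0629), and C1qtnf7 kept its call only without control replicate 2.

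The 5 genes whose pattern over the 6 libraries was most like that of Csf1r are on none of the macrophage lists. Among 12945 other genes with a mean of at least 100 normalised read counts, those with the highest Pearson correlation of log2 values were the ubiquitin ligase genes Rnf26 (0.996) and Rnf208 (0.990), the aldehyde reductase gene Akr1a1 (0.994), the transporter gene Slc16a13 (0.992) and the transcription factor gene Zbtb7a (0.990). With 6 libraries and so many genes, values this close to 1 are a description only.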

How the data were processed

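RNA of whole day 10 testes was measured in 3 control and 3 cKO libraries. Groups and replicate numbers come from the sample titles. Per the submitters' processing notes StringTie 1.3.1 and RSEM were used, without a stated role. Which aligner, build, annotation and strand setting were used is not given in the sources used here. A single table was deposited by the authors. Its name speaks of raw counts, but the deposited values are a normalised signal. In each of the 6 columns 100% of values were whole multiples of 1 step (tolerance 1e-06), and 1 divided by that step was the size factor (0.825 to 1.35) that DESeq2's median of ratios gives for the recovered reads. Among recovered counts of 1 to 20, 78.1% were even, so recovered reads may not be single independent molecules, and the reason was not tested.

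Low genes were removed from the 22219 by filterByExpr of edgeR (minimum count 10, recovered reads), leaving 17570. limma 3.58.1 (R 4.3.3) with an intensity-dependent prior was run on log2(value + 2), 2-sided, cKO against control, no covariate, with Benjamini-Hochberg adjustment over the genes tested. Fold changes on this scale understate those of low genes. edgeR 4.0.16 (quasi-likelihood) and DESeq2 1.42.0 on recovered reads, other scalings, pseudocounts of 0.5 and 8, no filter, a replicate block and leaving out each library were alternatives. No 2 libraries of a group were duplicates (chi-square per degree of freedom 10.02 or more). The labels do not say that libraries came from separate animals, so each p-value reflects only how far these samples spread, and that spread may be technical.

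The 10 genes and 19 further lists were chosen with earlier results of these data known. Of 264 list genes 250 were matched by symbol or RefSeq synonym. The rule for naming took the 10 genes, Eif5 and up to 3 called genes with the smallest adjusted p per list. It also took up to 3 of the highest level in the lists of macrophage, CSF1 pathway and complement genes, and 5 genes most like Csf1r. Not all genes it took have values given here, and those of the Sertoli, Leydig, endothelial, peritubular myoid and meiotic lists have none. Other genes named (Il34, Ccl2, Cx3cl1, Trac, Cd3d) were chosen after their values were seen. A gene that this rule names is not reported here.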

Additional observations from a re-analysis of the deposited data

How the results depend on the processing

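The 10 genes kept a positive log2 fold change under library totals, TMM factors, edgeR, DESeq2, pseudocounts of 0.5 and 8, no filter, the replicate block and each of the 6 fits without 1 library. Of the 10, 7 were called higher with TMM factors (1632 of all genes tested), 7 by DESeq2 (1887), 6 by edgeR (1575), 6 with no filter (1563 of 22219) and 0 with library totals (807). Leaving out 1 library gave 0 to 6 called higher, with 918 to 1747 genes called higher over all genes tested, fewest without cKO replicate 1. The replicate block gave 4 called higher (1535 of all genes tested). No pairing by replicate number was seen: deviations of same-numbered libraries from their group means correlated at -0.04, -0.00 and 0.06. Those of differently numbered libraries ran from -0.07 to 0.07. With 3 libraries per group this check cannot decide whether libraries were paired.

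Scalings tied to somatic cells reversed signs. With Sertoli cell reads summed the log2 fold changes were C1qa -0.034, C1qb -0.086, Csf1 -0.089, Csf1r -0.15, Adgre1 -0.27, Cx3cr1 -0.11 and Mrc1 -0.15, with the median of ratios over Sertoli genes C1qa -0.040, C1qb -0.093, Csf1 -0.10, Csf1r -0.16, Adgre1 -0.28, Cx3cr1 -0.11 and Mrc1 -0.16, and with Leydig cell reads summed, chosen after seeing the data, C1qa -0.065, C1qb -0.12, C1qc -0.013, Csf1 -0.12, Csf1r -0.18, Adgre1 -0.30, Cx3cr1 -0.14 and Mrc1 -0.18. In that order the median of the 10 was -0.087, -0.094 and -0.12, with 0 called higher each time, and over all genes tested 26, 60 and 37 were called higher and 5433, 8968 and 7785 lower. With library totals 2495 genes were called lower. The cause of these moves was not tested.

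The log2 difference of Mrc1 to Csf1r was -0.00 and ran from -0.089 to 0.060 without 1 library, and that of MHC class II to Csf1r was -0.07 and ran from -0.21 to 0.16, the highest without cKO replicate 3. Those of summed C1q and of Csf1 to Csf1r ran from 0.058 to 0.23 and from 0.033 to 0.099. Limits set by depth were not compared between genes.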
